A study of Homo sapiens with 24 samples.

Results

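The NF-κB subunit genes and the feedback inhibitor genes of the same pathway were followed in 4 human lines derived from cancers, 24 h after an exposure of 60 s to cold atmospheric plasma. The set was fixed by name: the 5 subunits REL, RELA, RELB, NFKB1 and NFKB2, and the 5 feedback inhibitors NFKBIA, NFKBIE, NFKBIZ, TNFAIP3 and BIRC3. All 10 were found once each among the 61533 genes of the count tables, and all 10 passed the low-count filter in each line. Each line had 3 libraries of cells exposed to Piezo-CAP (CAP), an ionised gas close to room temperature that a piezoelectric source generates, and 3 libraries of untreated cells (0 s), 24 libraries in all. Cells of every group carried the genotype label WT and had been seeded in 6-well plates overnight; Cal27, A375 and Hth83 grew in DMEM and Fadu in MEM. The sources used here do not tell whether untreated wells received a gas flow without plasma.

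Cal27 and Fadu are lines from squamous cell carcinomas of the tongue and of the hypopharynx, A375 is a melanoma line, and Hth83 carries the name of an anaplastic thyroid carcinoma line. The labels call all 4 lines head and neck cancer cells. CPM are counts-per-million. For cell type markers they were taken over total counts. For the other genes they used library sizes scaled by TMM, the trimmed mean of M values. Of 12 squamous epithelium markers, 10, 12 and 11 stood over 10 CPM in untreated Cal27, Fadu and Hth83, and 1 did so in untreated A375. Of 10 melanocyte markers, 5 were over 10 CPM in untreated A375, and 1, 2 and 0 in untreated Cal27, Fadu and Hth83. The melanocyte factor SOX10 was at 1150 ± 7.82 CPM in untreated A375 (SD, n = 3) and under 0.1 CPM in the untreated cells of the other lines. PMEL, MLANA, TYR, DCT and TYRP1 were low in untreated A375, at 1.2, 0.96, 0.0589, 1.82 and 0.55 CPM. PMEL was higher in untreated Cal27, Fadu and Hth83 (2.39, 4.83 and 1.68 CPM), and TYRP1 was at 15.5 CPM in untreated Fadu. Of 10 thyroid markers, PAX8 alone was over 10 CPM in untreated Hth83, at 126 ± 1.03 CPM (SD, n = 3), against 21.5, 1.51 and 6.15 CPM in untreated Cal27, A375 and Fadu; the other 9, NKX2-1 and TG among them, were under 1 CPM in Hth83. HLA-DRA, at 387 ± 5.07 CPM in untreated A375 (SD, n = 3), was the 1 leukocyte marker over 10 CPM in that line, where PTPRC was at 0.0343 ± 0.0317 CPM. Total counts ran between 27.9 and 49.5 M (mega) per library, and in Cal27 they were higher in CAP libraries (32.3 to 35.6 M) than in untreated ones (27.9 to 30.1 M). Nothing in the labels ties the 3 libraries of a group to separate cultures, and p-values therefore measure the spread between these libraries, which may be technical. RNA of whole wells was measured, and fewer cells of a kind cannot be told apart from less RNA per cell.

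NF-κB is a family of dimeric transcription factors. In resting cells the dimers are held in the cytoplasm by inhibitor (IκB) proteins; signals from cytokine receptors activate a kinase complex that marks the inhibitors for destruction, and the dimers then enter the nucleus. RELA, REL and RELB carry activation domains, whereas NFKB1 and NFKB2 encode precursors that are cut to DNA-binding partners and that can themselves hold dimers back. Several restraining genes are induced by NF-κB, which closes a negative feedback loop. NFKBIA and NFKBIE encode the inhibitors IκBα and IκBε, TNFAIP3 the ubiquitin-editing enzyme A20, and BIRC3 the ubiquitin ligase cIAP2, which with its partners keeps the kinase of the non-canonical branch low. NFKBIZ encodes IκBζ, a nuclear member of the family that is also known to assist transcription of some inflammatory genes. In squamous carcinomas the pathway is known for driving cytokine and survival genes.

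The promoters of 4 members whose counts moved in at least 2 lines are shown. They hold matches to the NF-κB (κB) consensus, the 10-base site that NF-κB dimers bind. NFKB1, NFKB2 and NFKBIZ also moved in at least 2 lines and held matches, but are not printed. Each line gives the 250 bases before the gene's start, 5′ to 3′ on the gene's own strand, from RefSeq on GRCh38.p14, with the matches in capitals. REL lies at chr2:60881324-60881573 (plus strand), NFKBIA at chr14:35404750-35404999 (minus strand), TNFAIP3 at chr6:137867009-137867258 (plus strand) and BIRC3 at chr11:102317234-102317483 (plus strand).
REL: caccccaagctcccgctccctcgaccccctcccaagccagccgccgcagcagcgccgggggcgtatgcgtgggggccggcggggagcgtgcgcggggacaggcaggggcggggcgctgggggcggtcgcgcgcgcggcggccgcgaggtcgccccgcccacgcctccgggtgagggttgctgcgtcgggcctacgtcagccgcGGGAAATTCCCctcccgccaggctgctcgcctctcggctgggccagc
NFKBIA: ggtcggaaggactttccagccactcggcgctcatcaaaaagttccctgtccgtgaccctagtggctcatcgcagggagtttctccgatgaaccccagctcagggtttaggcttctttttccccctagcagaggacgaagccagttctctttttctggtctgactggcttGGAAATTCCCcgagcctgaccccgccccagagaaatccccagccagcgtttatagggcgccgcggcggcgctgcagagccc
TNFAIP3: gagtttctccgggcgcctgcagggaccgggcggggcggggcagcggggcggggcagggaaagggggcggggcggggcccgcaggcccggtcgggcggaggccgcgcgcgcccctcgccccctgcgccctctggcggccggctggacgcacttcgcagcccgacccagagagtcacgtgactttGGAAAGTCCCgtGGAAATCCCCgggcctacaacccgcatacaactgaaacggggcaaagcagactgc
BIRC3: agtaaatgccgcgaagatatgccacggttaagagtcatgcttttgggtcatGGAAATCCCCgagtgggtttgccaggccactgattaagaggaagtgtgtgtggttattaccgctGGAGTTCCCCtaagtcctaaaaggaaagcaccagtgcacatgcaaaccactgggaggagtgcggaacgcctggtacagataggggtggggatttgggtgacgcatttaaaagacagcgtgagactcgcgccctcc
The REL stretch holds 2 overlapping matches that begin 47 and 46 bases before the start. The NFKBIA match begins 81 bases before the start, the TNFAIP3 matches 67 and 55 bases and the BIRC3 matches 199 and 135 bases before it. GENCODE 29 starts REL and TNFAIP3 ahead of these matches, so in that annotation the matches fall inside the first transcribed bases. The consensus reads the same on both strands, so 1 search covers both. Of the members, 8 were in the promoter table, with 13 windows in all, and 9 of these windows (69.2%), from 7 members, held a match; RELA had none. Among all 35116 windows listed, 12.3% held at least 1 match and 2.03% at least 2. A match is a description of letters and not a measured binding site.

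The first comparison asked how the 4 lines differed in these genes before treatment. TNFAIP3 and NFKBIA had the widest ranges: untreated Cal27 held 52.1-fold more TNFAIP3 than untreated A375, and untreated Fadu held 14.2-fold more NFKBIA than untreated A375. Untreated Cal27 stood highest for 8 of the 10 members, although on TPM it was second to Fadu for NFKBIZ; it was lowest for REL, and second to Fadu for NFKBIA. In edgeR's quasi-likelihood F test among the 4 untreated groups, with Benjamini-Hochberg adjustment over 23642 genes, all 10 members passed, where 93.2% of all genes tested did. Between pairs of untreated lines all 10 members differed for Cal27 against A375, Fadu and Hth83, beside 76.8%, 69.6% and 68.7% of all genes. For A375 against Fadu, A375 against Hth83 and Fadu against Hth83, 8 members differed each time, beside 75.6%, 71.7% and 69.4% of genes. Line, table and any difference in handling between the lines cannot be told apart here. The CPM used between lines were scaled over all 24 libraries together.

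**Figure D1:**
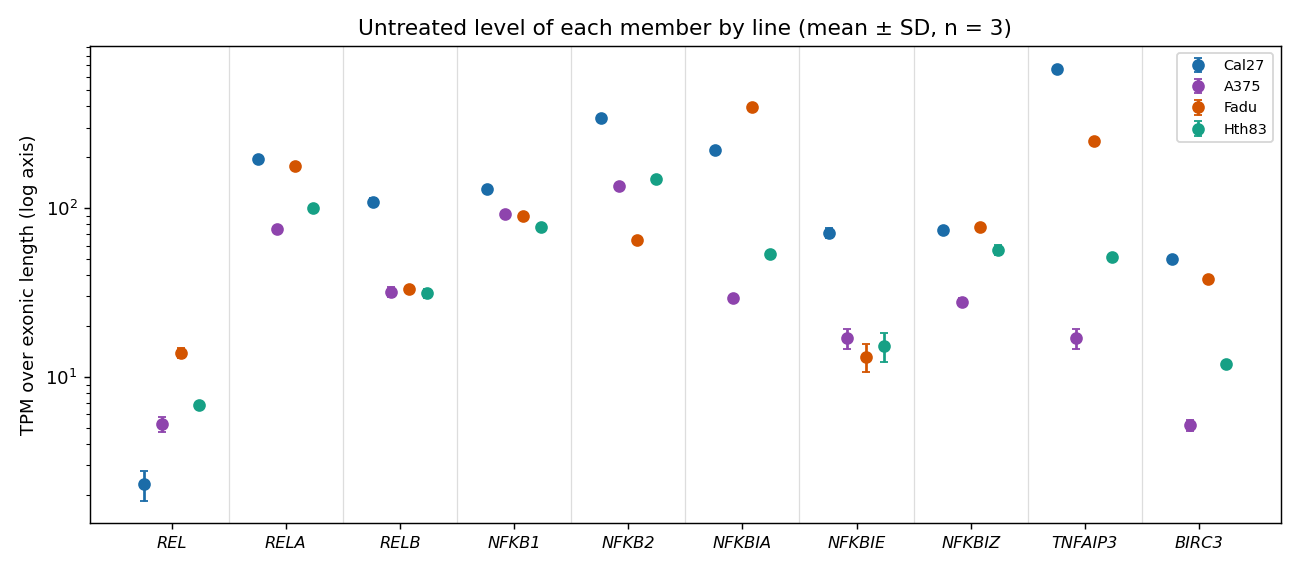
Untreated level of the 10 members in each line, as TPM (transcripts-per-million) over exonic length on a log axis, points giving the mean of 3 libraries and bars the SD. TNFAIP3 spans 17 to 667 TPM across the lines and REL stays between 2.31 and 13.9 TPM, below the other subunits in every line.

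Levels of different genes were compared per length, as TPM recomputed over exonic length, because the deposited TPM were found to divide by the whole genomic span of a gene. Among the subunits of untreated Cal27, NFKB2 averaged 340 ± 13.1 TPM, RELA 195 ± 6.43 TPM, NFKB1 130 ± 4.69 TPM, RELB 109 ± 6.5 TPM and REL 2.31 ± 0.474 TPM (SD, n = 3). REL was thus the lowest subunit there, and it was the lowest in the other untreated lines too, at 5.26 ± 0.511 TPM in A375, 13.9 ± 0.9 TPM in Fadu and 6.82 ± 0.0977 TPM in Hth83 (SD, n = 3). NFKB2 took 43.8% of the summed subunit TPM in untreated Cal27, 39.8% in untreated A375 and 40.8% in untreated Hth83, whereas in untreated Fadu RELA took 46.8% and NFKB2 17%. The most abundant feedback inhibitor was TNFAIP3 in untreated Cal27 (667 ± 12.3 TPM), NFKBIA in untreated Fadu (395 ± 5.77 TPM), NFKBIZ in untreated Hth83 (56.4 ± 3.89 TPM) and NFKBIA in untreated A375 (29.4 ± 1.38 TPM; SD, n = 3). In untreated A375, NFKBIZ (27.9 ± 1.32 TPM) lay within 2 SD of NFKBIA, and in untreated Hth83, NFKBIA (53.6 ± 2.02 TPM) and TNFAIP3 (51 ± 2.05 TPM) lay within 2 SD of NFKBIZ (SD, n = 3). Untreated TNFAIP3 of Cal27 stood at or above 98.8% of the 16510 genes with at least 1 TPM, and REL at or above 16.9% of them.

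The order of the lines differed between members. For TNFAIP3, untreated Cal27 had 900 ± 14.1 CPM, Fadu 270 ± 3.37 CPM, Hth83 62 ± 1.64 CPM and A375 17.3 ± 2.26 CPM (SD, n = 3), and every neighbour in this order differed. BIRC3 followed the same order, at 99.8 ± 4.75, 61.2 ± 0.826, 21.8 ± 0.803 and 7.9 ± 0.641 CPM in untreated Cal27, Fadu, Hth83 and A375, and RELA did as well, at 284 ± 7.97, 208 ± 2.43, 131 ± 6.1 and 83.2 ± 2.1 CPM (SD, n = 3). The step of RELA between untreated Cal27 and Fadu was not called on the deposited TPM (log2 difference 0.05, limma adjusted p = 0.0976). For NFKBIA untreated Fadu led with 201 ± 1.89 CPM, ahead of Cal27 with 141 ± 6.01, Hth83 with 30.6 ± 0.996 and A375 with 14.1 ± 0.616 CPM (SD, n = 3).

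REL and NFKB2 ran in nearly opposite orders. Untreated Fadu had 39.2 ± 2.68 CPM of REL, Hth83 21.6 ± 0.227 CPM, A375 14 ± 1.42 CPM and Cal27 8.12 ± 1.62 CPM (SD, n = 3), a 4.83-fold range in which each step passed the test. NFKB2 was highest in untreated Cal27 (407 ± 17.6 CPM), then Hth83 (160 ± 5.46 CPM), A375 (122 ± 1.48 CPM) and Fadu (61.9 ± 3.65 CPM; SD, n = 3), a 6.58-fold range.

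For RELB, NFKB1 and NFKBIE untreated Cal27 stood above the other 3 lines. RELB had 88.3 ± 5.71 CPM in untreated Cal27, 3.84-fold the 23 ± 1.74 CPM of Hth83, and the neighbours Hth83 and Fadu (log2 difference 0.08 ± 0.07 SE) and Fadu and A375 (0.15 ± 0.07, adjusted p = 0.0624, edgeR) did not pass. The second of these was called with DESeq2 (adjusted p = 0.0497), with a CPM filter (0.0354), in untreated libraries alone (0.0461) and without A375 untreated replicate 1 (0.0163). RELB of A375 was below that of Hth83 (log2 difference -0.23 ± 0.07 SE, adjusted p = 0.00449, edgeR), a call lost by library size alone and on TPM and without Hth83 untreated replicate 1 (-0.17, adjusted p = 0.0559). NFKB1 had 217 ± 6.72 CPM in untreated Cal27, 1.79-fold the 121 ± 1.45 CPM of Fadu (SD, n = 3). No pair among untreated Fadu, A375 and Hth83 passed for NFKB1 at this scaling. By library size alone untreated A375 stood above Hth83 by 0.23 (log2) and Fadu above Hth83 by 0.20, and this Fadu difference was also called with DESeq2 (0.11, adjusted p = 0.0224), with RLE size factors (0.11, edgeR adjusted p = 0.0274) and on TPM (0.18 to 0.21). NFKBIE had 49.1 ± 3.5 CPM in untreated Cal27, 5.13-fold the 9.5 ± 1.78 CPM of Hth83, which did not differ beyond the spread from A375 at 8.86 ± 1.25 CPM (SD, n = 3). A375 in turn stood narrowly above Fadu, where NFKBIE was at 7.31 ± 1.34 CPM (SD, n = 3; adjusted p = 0.0473, edgeR), a call lost with DESeq2 (adjusted p = 0.0546), with a replicate block (adjusted p = 0.0555) and, at the highest, without Fadu untreated replicate 2 (adjusted p = 0.284). NFKBIZ had 116 ± 4.41 CPM in untreated Cal27 and 97.4 ± 5.06 CPM in untreated Fadu (SD, n = 3), a 1.19-fold difference whose direction turned on the deposited TPM (log2 difference -0.14) and on the exonic TPM (-0.06).

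The second comparison asked which members differed between CAP and untreated cells within each line. In Cal27, 1 member rose (REL), 7 fell and 2 did not pass, in A375 4 rose and 2 fell, in Fadu 3 rose and 5 fell, and in Hth83 3 rose and 3 fell. Calls were common among all genes: after Benjamini-Hochberg adjustment of edgeR's quasi-likelihood p-values, 45.1% of the genes tested in Cal27 passed (21.9% higher, 23.2% lower), 50.5% in A375 (25.7% higher, 24.8% lower), 53.3% in Fadu (26.3% higher, 27% lower) and 50.1% in Hth83 (25.9% higher, 24.2% lower). The members' shares of 80%, 60%, 80% and 60% are to be read against these. In untreated Cal27 the members other than REL stood at or above at least 75.8% of genes with at least 1 TPM. Shares among genes of like level were not computed. The CPM of CAP and untreated libraries did not overlap for 8 members in Cal27, 6 in A375, 8 in Fadu and 8 in Hth83, beside 52.7%, 57.9%, 58.6% and 57.2% of all genes tested. The median log2 fold change over the members was -0.24 in Cal27, 0.00 in A375, -0.17 in Fadu and -0.02 in Hth83, beside 0.00, -0.02, 0.01 and 0.00 over all genes tested.

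**Figure D2:**
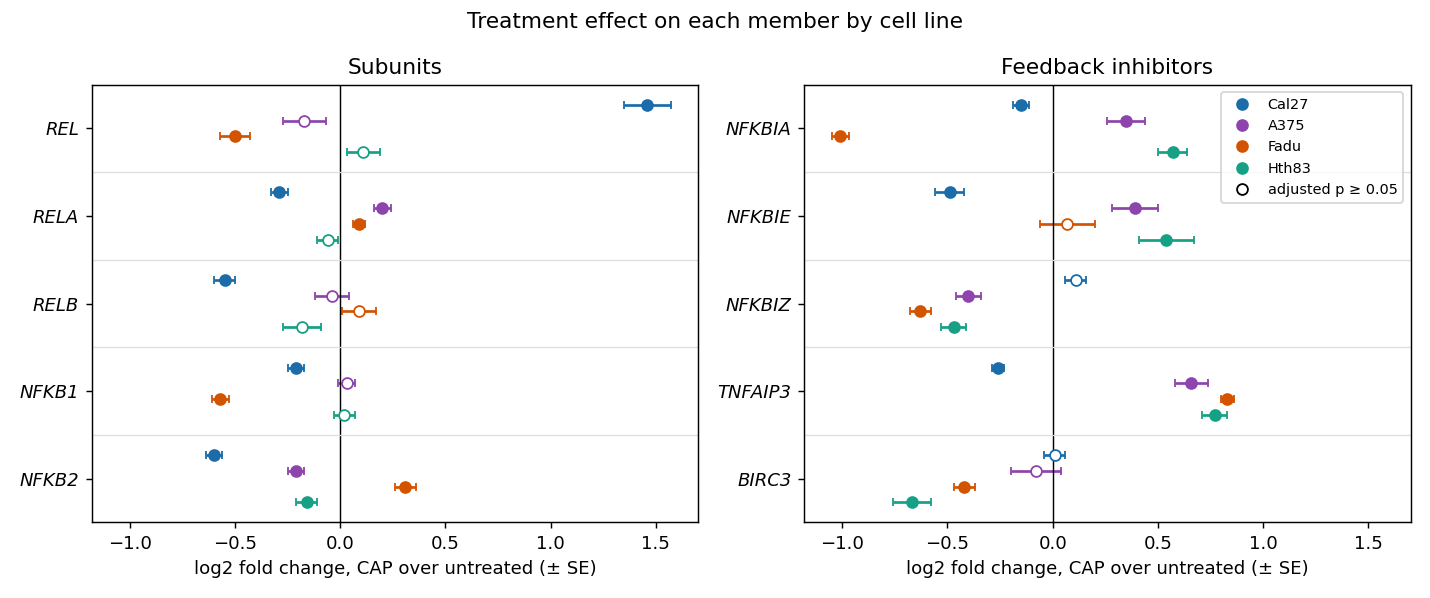
Log2 fold change of each member, CAP over untreated, ± SE in the 4 lines (n = 3 libraries per group); filled points passed an adjusted p of 0.05 and open points did not. REL reaches 1.46 in Cal27 and is at -0.50 in Fadu, and NFKBIA is at -1.01 in Fadu and 0.57 in Hth83.

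Among the subunits, REL, which encodes c-Rel, the subunit best known from lymphocytes, rose in Cal27. It had 22.3, 21.3 and 19.5 CPM in CAP libraries of Cal27, against 7.34, 6.27 and 9.26 CPM in untreated ones. The groups did not overlap, and the fold was 2.75 (log2 1.46 ± 0.11 SE, adjusted p = 3.34e-12, edgeR's quasi-likelihood test). The rise kept its call under each of the 18 alternatives run, with log2 values between 1.28 and 1.66. In the same line REL made up 1.1 ± 0.0563% of the summed subunit TPM after CAP and 0.298 ± 0.0639% in untreated cells (SD, n = 3), so it remained the rarest subunit.

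In Fadu, REL fell. CAP libraries had 28.6, 32.1 and 27.9 CPM and untreated libraries 42.6, 44.1 and 38.8 CPM, without overlap (log2 -0.50 ± 0.07 SE). REL did not pass in A375 (13.2 ± 1.79 CPM after CAP and 14.8 ± 1.41 CPM untreated; log2 -0.17 ± 0.10 SE) or in Hth83 (21.9 ± 0.761 and 20.2 ± 0.242 CPM; log2 0.11 ± 0.08 SE; SD, n = 3). Without CAP replicate 2 of A375 it would have been called there, at -0.28 with an adjusted p of 0.0231 (edgeR), and scaled by library size alone it was at -0.24 (adjusted p = 0.0496). GENCODE 29 places a second transcript, AC010733.2, over 5702 bases of REL on the same strand. It is listed at 0 counts in all 24 libraries, and how reads in the shared bases were assigned is not given, so REL counts are uncertain in level.

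RELA, the main activating subunit, moved by small amounts. In Cal27 it fell to 226, 216 and 215 CPM in CAP libraries, against 262, 264 and 275 CPM in untreated ones (log2 -0.29 ± 0.04 SE), a call that was lost on the deposited TPM (-0.05, limma adjusted p = 0.261). In A375 it rose, with 104, 99.5 and 99.4 CPM after CAP and 88.5, 85.7 and 89.7 CPM untreated (0.20 ± 0.04 SE). In both lines the groups were apart. Fadu had 240, 226 and 244 CPM after CAP and 222, 223 and 220 CPM untreated (0.09 ± 0.03 SE, adjusted p = 0.0184, edgeR), a call that was lost without CAP replicate 1 (0.08, adjusted p = 0.0649), CAP replicate 3 (0.07, 0.0856) or untreated replicate 3 (0.09, 0.0687) and without a low-count filter (0.08, 0.0839). Hth83 did not pass (118 ± 0.711 CPM after CAP and 123 ± 5.58 CPM untreated; SD, n = 3). RELA-DT, a transcript on the opposite strand that overlaps RELA by 9 bases, had at most 1.64% of the counts of RELA in any library of Cal27, Fadu and Hth83 and at most 7.91% in A375.

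RELB, which pairs with the NFKB2 product in the non-canonical branch, fell in Cal27 alone among the per-line tests. CAP libraries of Cal27 had 57.9, 56 and 56.6 CPM and untreated ones 83.7, 88 and 77.2 CPM (log2 -0.55 ± 0.05 SE), with no overlap. In A375 the groups overlapped (20.2 ± 1.55 CPM after CAP, 20.7 ± 1.44 CPM untreated), and in Fadu they did too (24.7 ± 1.48 and 23.1 ± 0.468 CPM; SD, n = 3), although by library size alone RELB was called higher in Fadu (0.20, edgeR adjusted p = 0.0238). Hth83 had 18.9 ± 0.413 CPM after CAP and 21.5 ± 1.56 CPM untreated (SD, n = 3; log2 -0.18 ± 0.09 SE, adjusted p = 0.0739, edgeR). The groups were apart but close there (at most 19.4 CPM after CAP, at least 19.9 CPM untreated). RELB of Hth83 passed without untreated replicate 2 (adjusted p = 0.0453, edgeR), in the fit of all 24 libraries (-0.19, adjusted p = 0.033) and with a CPM filter (-0.20, adjusted p = 0.0462).

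NFKB1, whose precursor yields the partner of RELA, fell in Fadu, where CAP libraries had 87.8, 88.6 and 83.6 CPM and untreated libraries 130, 127 and 130 CPM (log2 -0.57 ± 0.04 SE). The groups were far apart there. In Cal27 it had 184, 172 and 170 CPM after CAP and 202, 198 and 210 CPM untreated (-0.21 ± 0.04 SE), a fall that turned to 0.02 on the deposited TPM. A375 (126 ± 5.69 CPM after CAP, 123 ± 2.51 CPM untreated) and Hth83 (111 ± 6.13 and 110 ± 3.56 CPM; SD, n = 3) did not pass.

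NFKB2, the precursor of the non-canonical branch, was called in all 4 lines. It fell in Cal27, to 254, 253 and 251 CPM in CAP libraries, against 379, 401 and 367 CPM in untreated ones (log2 -0.60 ± 0.04 SE). In Fadu it rose, with 81.3, 79.7 and 83.5 CPM after CAP and 69.4, 66.4 and 62 CPM untreated (0.31 ± 0.05 SE). Fadu is also the line with the lowest untreated NFKB2. Smaller falls were found in A375 (112 ± 7.03 CPM after CAP, 130 ± 2.41 CPM untreated; -0.21 ± 0.04 SE) and in Hth83 (134 ± 5.24 and 150 ± 4.97 CPM; SD, n = 3; -0.16 ± 0.05 SE). The call in Hth83 was lost on the deposited TPM (-0.10, limma adjusted p = 0.0873).

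**Figure D3:**
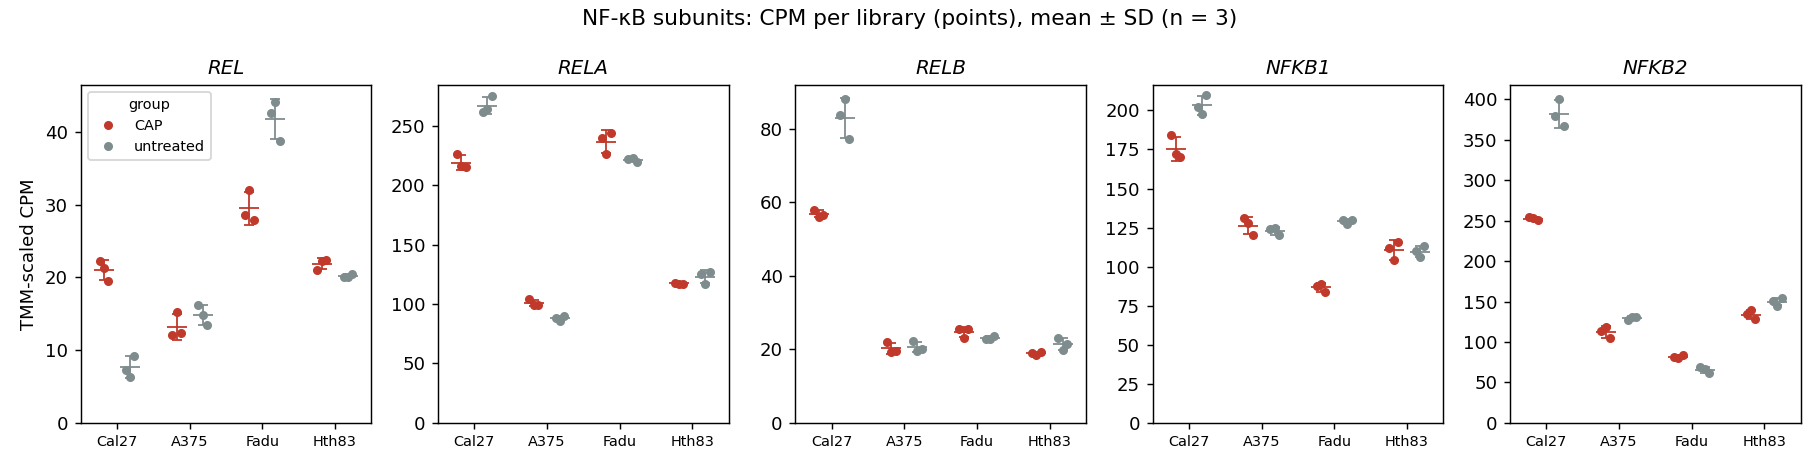
TMM-scaled CPM of the 5 subunits, one point per library with the mean and SD of 3 libraries, CAP left of untreated in each line. The CAP libraries of Cal27 lie above the untreated ones for REL (19.5 to 22.3 against 6.27 to 9.26 CPM) and below them for the other 4 subunits.

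As a sum over exonic length, the 5 subunits stood at 651 ± 10.8 TPM after CAP and 775 ± 10.7 TPM untreated in Cal27, 313 ± 12.5 and 339 ± 1.76 TPM in A375, 390 ± 8.91 and 380 ± 3.6 TPM in Fadu, and 353 ± 3.72 and 364 ± 9.55 TPM in Hth83 (SD, n = 3). NFKB2 took 38.9 ± 0.62% of that sum in CAP-treated Cal27 and 43.8 ± 1.15% in untreated Cal27. In Fadu its share was 21.2 ± 0.246% after CAP and 17 ± 0.745% untreated, and RELA's was 50.5 ± 0.817% and 46.8 ± 0.401% (SD, n = 3).

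Among the inhibitors, NFKBIA, the main cytoplasmic inhibitor, fell in Fadu and rose in Hth83. Fadu had 114, 102 and 104 CPM after CAP and 213, 212 and 217 CPM untreated, 0.497-fold (log2 -1.01 ± 0.04 SE, adjusted p = 6.77e-41, edgeR). Hth83 had 40.6, 44.7 and 42.2 CPM after CAP and 27.7, 28.6 and 29.7 CPM untreated, 1.48-fold (0.57 ± 0.07 SE). Neither line had overlapping groups, and both calls held in all alternatives. A375 had 21.4, 17.1 and 18.7 CPM after CAP and 15, 15.5 and 14.2 CPM untreated (0.35 ± 0.09 SE), and on the deposited TPM the call was lost (0.25, limma adjusted p = 0.0642). Cal27 had 120, 121 and 117 CPM after CAP and 135, 136 and 126 CPM untreated (-0.15 ± 0.04 SE), a difference that turned to 0.09 on the deposited TPM and to 0.03 on the exonic TPM and was lost when scaled by library size alone (-0.07, edgeR adjusted p = 0.219).

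TNFAIP3, which shuts down signalling upstream of the kinase complex, rose in 3 lines by similar folds and fell in Cal27. In Fadu it had 498, 513 and 519 CPM after CAP and 291, 286 and 286 CPM untreated, 1.77-fold (log2 0.83 ± 0.03 SE, adjusted p = 1.66e-41, edgeR). Hth83 had 92.7, 104 and 100 CPM after CAP and 57.2, 59.9 and 57 CPM untreated, 1.7-fold (0.77 ± 0.06 SE). A375 had 31.3, 26.8 and 29 CPM after CAP and 17.2, 21.1 and 16.7 CPM untreated, 1.58-fold (0.66 ± 0.08 SE). None of the 3 lines had overlapping groups, and the rise kept its call in each alternative run. In Cal27, the line with the highest untreated level, CAP libraries had 692, 713 and 720 CPM and untreated libraries 856, 833 and 848 CPM (-0.26 ± 0.03 SE); the groups were apart, but on the deposited TPM the difference was -0.02 (limma adjusted p = 0.611). WAKMAR2, on the opposite strand, overlaps TNFAIP3 by 1046 bases, and since the use of strand is not given the counts of both are uncertain. It had 8.55% to 13.2% of the counts of TNFAIP3 in CAP libraries of A375 and 15.4% to 24.6% in untreated ones, and at most 3.5% in any library of the other lines.

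NFKBIA and TNFAIP3 moved in opposite directions in Fadu, where NFKBIA fell and TNFAIP3 rose. In A375 and Hth83 both rose. In Cal27 both were called lower with TMM scaling, whereas NFKBIA turned to 0.09 and TNFAIP3 was at -0.02 on the deposited TPM, neither of them called.

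NFKBIE, a slower-acting cytoplasmic inhibitor, rose in Hth83, with 12.1, 15.2 and 11.9 CPM after CAP and 9.09, 10.5 and 7.14 CPM untreated (log2 0.54 ± 0.13 SE). It rose in A375 as well, with 14, 11 and 11.9 CPM after CAP and 9.07, 8.21 and 10.8 CPM untreated (0.39 ± 0.11 SE). The groups were apart but close in both lines, and on the deposited TPM the A375 call was lost (0.29, limma adjusted p = 0.125); the Hth83 call was lost there when no filter was set (0.59, limma adjusted p = 0.0889). In Cal27 it fell to 33, 35.7 and 29.5 CPM in CAP libraries, against 48.2, 47.8 and 42.3 CPM in untreated ones (-0.49 ± 0.07 SE), a call lost on the deposited TPM (-0.26, limma adjusted p = 0.0666). Fadu did not pass (8.15 ± 0.27 CPM after CAP and 7.79 ± 1.46 CPM untreated; SD, n = 3).

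NFKBIZ fell in A375, Fadu and Hth83. Fadu had 69.2, 64.4 and 68.1 CPM after CAP and 110, 99.7 and 102 CPM untreated (log2 -0.63 ± 0.05 SE). Hth83 had 53.7, 58 and 50.6 CPM after CAP and 73, 70.6 and 81.4 CPM untreated (-0.47 ± 0.06 SE). A375 had 27.1, 26.7 and 26.7 CPM after CAP and 37.1, 34.5 and 34.1 CPM untreated (-0.40 ± 0.06 SE). CAP and untreated libraries were apart in all 3 lines, and these falls kept their call in each alternative run. In Cal27 the groups overlapped, at 113, 124 and 116 CPM after CAP and 107, 107 and 114 CPM untreated (0.11 ± 0.05 SE, adjusted p = 0.0601, edgeR), and the difference was called without CAP replicate 1 (0.13, adjusted p = 0.0245), without untreated replicate 3 (0.14, adjusted p = 0.0143), by library size alone (0.19, adjusted p = 0.00107) and on the deposited TPM (0.33, limma adjusted p = 0.00839).

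BIRC3 fell in Hth83 and Fadu. Hth83 had 12.1, 13.7 and 12.7 CPM after CAP and 19.7, 20.2 and 21.3 CPM untreated, 0.628-fold (log2 -0.67 ± 0.09 SE). Fadu had 50.1, 47.2 and 49.2 CPM after CAP and 66.2, 64.7 and 64.9 CPM untreated (-0.42 ± 0.05 SE). Neither line had overlapping groups. Cal27 (94.2 ± 2.81 CPM after CAP, 93.7 ± 4.48 CPM untreated) and A375 (7.99 ± 1.31 and 8.35 ± 0.621 CPM; SD, n = 3) did not pass, and in Cal27 the deposited TPM put BIRC3 higher by 0.24 (limma adjusted p = 0.0153).

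**Figure D4:**
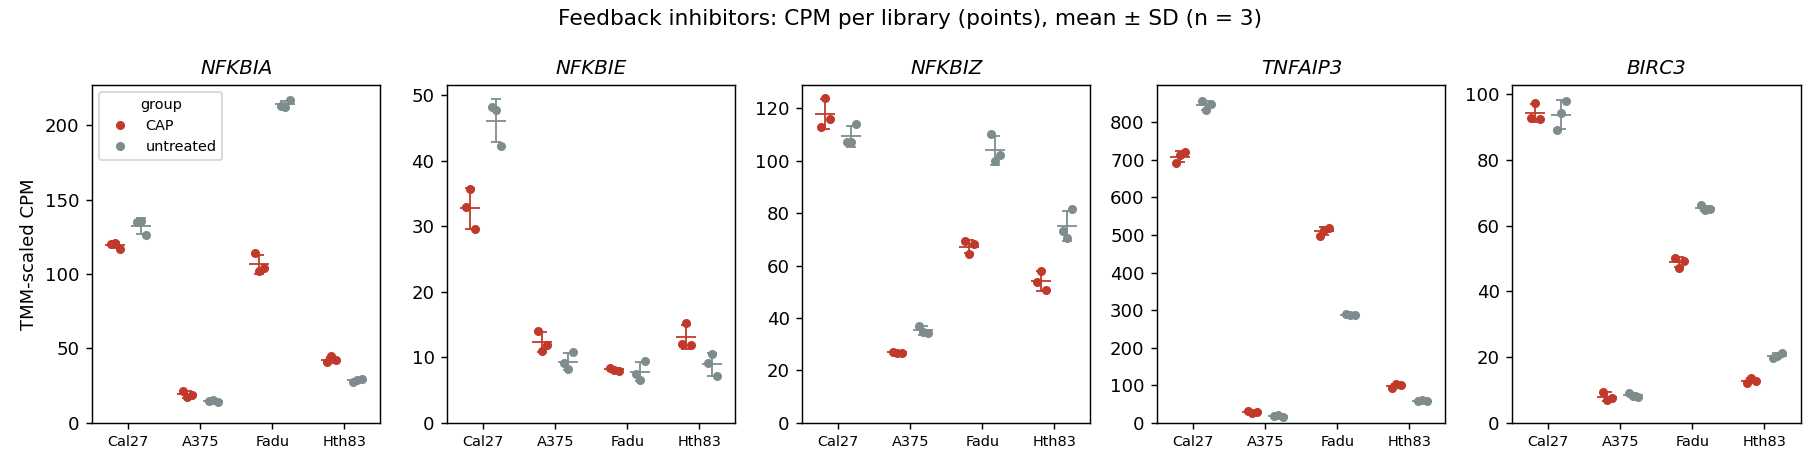
TMM-scaled CPM of the 5 feedback inhibitors, one point per library with the mean and SD of 3 libraries, CAP left of untreated in each line. TNFAIP3 lies higher after CAP in A375, Fadu and Hth83 and lower in Cal27, where the deposited TPM give a difference of -0.02, and NFKBIA of Fadu lies at 102 to 114 CPM after CAP and 212 to 217 CPM untreated.

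The scaling mattered most in Cal27. On the deposited TPM the median of all genes there was 0.198 (log2) higher after CAP, and 83.4% of all called genes were higher, against 48.5% with TMM scaling and 62.4% by library size alone. Relative to that median, REL was at 1.08, BIRC3 at 0.04 and NFKBIZ at 0.13, and the other 7 members lay between -0.11 (NFKBIA) and -0.56 (NFKB2). On the deposited TPM 5 members were called in Cal27, 3 higher and 2 lower. In A375 40.8% of calls were higher on the deposited TPM and 39.8% by library size, against 50.9%; in Fadu 61.8% by library size, against 49.3%; and in Hth83 60.9% on the deposited TPM, against 51.7%. In Fadu the median of all genes was 0.114 by library size alone, against 0.01 with TMM scaling.

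Markers moved in the same comparisons, and their part in the members' results was not tested. The summed CPM of the 12 squamous epithelium markers was 2710 to 2750 in CAP libraries and 3870 to 3950 in untreated libraries of Cal27, 6120 to 6610 and 10600 to 10900 in Fadu, and 4510 to 4990 and 6420 to 6690 in Hth83. Of the 12 markers, 1 rose and 10 fell in Cal27, 4 rose and 7 fell in Fadu, and 3 rose and 9 fell in Hth83. These calls used TMM scaling, whereas the marker CPM were taken over total counts. In Fadu the lower sum lay in the keratins KRT5 (1330 ± 125 CPM after CAP, 3940 ± 83 CPM untreated) and KRT17 (1830 ± 115 and 3640 ± 90.2 CPM; SD, n = 3), and the means of the other 10 summed to 3140 CPM after CAP and 3134 CPM untreated. Without these keratins the sums were 2592 and 3569 CPM in Cal27 and 3830 and 4961 CPM in Hth83. In A375 the summed melanocyte markers stood at 1840 to 1910 CPM after CAP and 2180 to 2210 CPM untreated. The median leukocyte marker was under 0.1 CPM in every group, and the median fibroblast marker under 2 CPM.

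The third comparison asked whether the effect of CAP differed between lines. All 10 members passed the F test for an interaction of line and treatment in edgeR's quasi-likelihood fit of all 24 libraries, where 56.9% of the 23642 genes tested passed. The smallest adjusted p was that of NFKBIA (4.27e-23), followed by TNFAIP3 (8.05e-21). Of the members, 6 (60%) rose in at least 1 line and fell in at least 1 other, beside 44.5% of the 14240 genes tested in all 4 lines. These were REL, RELA, NFKB2, NFKBIA, NFKBIE and TNFAIP3. The list depends on the processing. Fits on TPM used another test (limma) and filter too, so the part of scaling alone is not known there. On the deposited TPM the list held 5 members (50%, beside 30.6% of genes), REL, NFKB2, NFKBIA, NFKBIZ and BIRC3. RELA, NFKBIE and TNFAIP3 left it because their falls in Cal27 were not called. By library size alone it held 8 members (80%, beside 42.9% of genes), and on the exonic TPM 7 (70%, beside 36.9% of genes). NFKB2, NFKBIA and TNFAIP3 were called in all 4 lines (30% of members, 16.4% of genes), and no member rose in all 4 or fell in all 4, as 1.35% and 1.29% of genes did. On the deposited TPM none of these 3 was called in all 4 lines, and NFKBIZ was the 1 member that was (10%, beside 8.61% of genes), as it was on the exonic TPM (11.7% of genes).

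Pair by pair, Cal27 differed from A375 in 9 members, from Fadu in 10 and from Hth83 in 10, beside 35.5%, 38.4% and 35% of all genes. On the deposited TPM these counts were 6 (RELB, NFKB1, NFKB2 and NFKBIA lost their call and BIRC3 gained one, at 0.38), 9 (NFKBIE lost) and 7 (RELA, RELB and NFKB1 lost). Leaving out 1 library at a time left the counts at 9, 10 and 10. Between A375 and Fadu 5 members differed (36% of genes), between A375 and Hth83 3 (27.3%), and between Fadu and Hth83 8 (35.7%). Leaving out single libraries moved these counts. Those fits also applied the low-count filter anew with a smaller smallest group, so library and filter cannot be told apart. Between Fadu and Hth83 4 members were called without Fadu CAP replicate 3, where RELA, RELB, NFKBIE and BIRC3 were lost, and 5 without Fadu CAP replicate 1, Fadu untreated replicate 3, or untreated replicate 1 or 3 of Hth83. That count was 5 without a low-count filter and 6 on the deposited TPM. Between A375 and Fadu 3 were called without A375 untreated replicate 2. Between A375 and Hth83 5 were called by library size alone and on the deposited TPM. The log2 effect on REL was larger in Cal27 than in Fadu by 1.95 ± 0.14 SE (adjusted p = 9.11e-17, edgeR), and that on NFKBIA was smaller in Fadu than in Hth83 by 1.56 ± 0.08 SE (log2 difference -1.56, adjusted p = 6.54e-23, edgeR). For TNFAIP3 the effects in Fadu and Hth83 did not differ beyond the spread (log2 difference 0.08 ± 0.07 SE). Those in A375 and Hth83 did not pass (-0.12 ± 0.08 SE), but they were called by library size alone (-0.22, edgeR adjusted p = 0.0223) and on the deposited TPM (-0.27, limma adjusted p = 0.0451), whereas Fadu exceeded A375 narrowly (A375 minus Fadu -0.20 ± 0.07 SE, adjusted p = 0.0277, edgeR). That last call was lost with a replicate block (adjusted p = 0.0585) and, for example, without A375 untreated replicate 2 (-0.09, adjusted p = 0.374). For NFKBIZ no pair among A375, Fadu and Hth83 passed in the fit of all libraries, with differences of 0.19 ± 0.08, 0.06 ± 0.08 and -0.14 ± 0.08 SE for A375 minus Fadu, A375 minus Hth83 and Fadu minus Hth83. The first of these was near the threshold (adjusted p = 0.06, edgeR) and was called in 18 of the 24 fits that left out 1 library (0.22 to 0.25, adjusted p between 0.0219 and 0.0499), and the last was called without Hth83 untreated replicate 3 (-0.22, adjusted p = 0.0233). The pairs share libraries, so these tests are not independent of each other.

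The rest of the pathway was described by 105 genes in 5 roles. Of those tested, 16 of 99 rose and 52 fell in Cal27, 28 of 87 rose and 25 fell in A375, 31 of 94 rose and 41 fell in Fadu, and 28 of 91 rose and 34 fell in Hth83. The shares called were thus 68.7%, 60.9%, 76.6% and 68.1%, beside 45.1%, 50.5%, 53.3% and 50.1% of all genes tested. The median log2 fold change of these genes was -0.23, 0.08, -0.14 and -0.01 in that order. Of the 26 tested targets, the cytokine, chemokine and effector genes that NF-κB induces, 23 fell and 1 rose in Cal27 (median -0.72). In Fadu 11 rose and 12 fell of 26 (median -0.12), in A375 7 rose and 4 fell of 19 (0.18), and in Hth83 8 rose and 12 fell of 24 (-0.11). The shares of targets called were 92.3% in Cal27, 57.9% in A375, 88.5% in Fadu and 83.3% in Hth83. The target median of Cal27 was -0.63 by library size, -0.48 on the deposited TPM and -0.54 on the exonic TPM, whereas the median of all these pathway genes in Cal27 turned to 0.01 on the deposited TPM.

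Of the ligands tested, 5 of 9 fell and none rose in Cal27, 2 of 5 fell and none rose in A375, 3 of 6 fell and 2 rose in Fadu, and 2 of 7 fell and none rose in Hth83. The shares called were 55.6%, 40%, 83.3% and 28.6% in that order, beside 45.1%, 50.5%, 53.3% and 50.1% of all genes tested. IL1B, an inflammatory cytokine that activates the pathway, fell in Cal27 to 262 ± 2.09 CPM after CAP, against 528 ± 16.5 CPM untreated (log2 -1.01 ± 0.03 SE); it fell in Hth83 as well (-0.47 ± 0.10 SE) and rose in Fadu, with 101 CPM after CAP and 89.8 CPM untreated (0.17 ± 0.04 SE). IL1A fell in every line, in Hth83 to 494 ± 61.9 CPM after CAP, against 1060 ± 55.6 CPM untreated (-1.10 ± 0.08 SE; SD, n = 3). Its log2 fold change was -0.89 ± 0.03 SE in Cal27, -0.37 ± 0.10 SE in A375 and -0.32 ± 0.04 SE in Fadu. Receptors went both ways, with 5 up and 5 down of 17 in Cal27, 5 and 6 of 17 in A375, 2 and 7 of 15 in Fadu, and 7 and 6 of 14 in Hth83. Calls made up 58.8%, 64.7%, 60% and 92.9% of receptors in that order, beside the same shares of all genes. TLR4, the lipopolysaccharide receptor, rose in A375 (244 ± 16.3 CPM after CAP, 141 ± 3.15 CPM untreated) and in Cal27 (11 ± 0.202 and 7.15 ± 0.783 CPM), and TLR3, a receptor for double-stranded RNA, fell in Fadu (6.24 ± 1.02 and 21.8 ± 0.689 CPM; SD, n = 3).

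Of the 28 kinases and adaptors, all tested in each line, 7 rose and 9 fell in Cal27, 11 and 10 in A375, 8 and 13 in Fadu, and 4 and 10 in Hth83. The shares called were 57.1%, 75%, 75% and 50% in that order, beside 45.1%, 50.5%, 53.3% and 50.1% of all genes tested. IKBKE, a kinase related to the IκB kinases, rose in Hth83 (47.1 ± 1.69 CPM after CAP, 26.5 ± 0.94 CPM untreated; SD, n = 3) and in A375 (log2 0.31 ± 0.09 SE) and fell in Cal27 (-0.37 ± 0.08 SE) and Fadu (-0.36 ± 0.11 SE). The adaptor TRAF1, itself an NF-κB target, fell in A375 (112 ± 8.77 CPM after CAP, 173 ± 4.17 CPM untreated; SD, n = 3) and Cal27 (-0.58 ± 0.07 SE) and rose in Fadu (1.40 ± 0.16 SE). Of the other inhibitors and ubiquitin editors, 3 of 19 rose and 10 fell in Cal27, 5 of 18 and 3 in A375, 8 of 19 and 6 in Fadu, and 9 of 18 and 4 in Hth83. Calls made up 68.4%, 44.4%, 73.7% and 72.2% of them in that order, beside the same shares of all genes. RBCK1, a subunit of the linear ubiquitin ligase, fell in Hth83 (81.6 ± 4.84 CPM after CAP, 181 ± 8.13 CPM untreated), where ZC3H12A, an RNase that degrades inflammatory mRNAs, rose (138 ± 5.16 and 83.5 ± 3.38 CPM; SD, n = 3). In Cal27 both fell (log2 -0.49 ± 0.04 SE each), and in Fadu ZC3H12A rose (0.13 ± 0.05 SE). OTULIN, which removes linear ubiquitin chains, rose in Cal27 (67.5 ± 1.35 and 51.9 ± 1.23 CPM; SD, n = 3). It rose in Hth83 (log2 0.16 ± 0.06 SE) and fell in Fadu (-0.17 ± 0.04 SE).

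Single targets diverged within a line. In Fadu PTGS2, the inducible cyclooxygenase, rose to 127 ± 6.96 CPM after CAP, against 12 ± 2.04 CPM untreated (log2 3.40 ± 0.08 SE), and CXCL1 rose 1.15 ± 0.05 (log2), while the chemokine CCL20 (-2.17 ± 0.11 SE) and the mitochondrial superoxide dismutase SOD2 (-1.68 ± 0.05 SE) fell. In Hth83 the neutrophil chemokine CXCL1 rose to 212 ± 34.3 CPM after CAP, against 71.2 ± 9.79 CPM untreated, whereas its relatives CXCL2 (14.7 ± 1.09 and 69.2 ± 7.43 CPM) and CXCL3 (7.15 ± 0.461 and 20.5 ± 1.09 CPM; SD, n = 3) fell. These relatives share sequence, and reads could have been split between them. In Cal27, where REL rose, the targets IL6 (70.1 ± 3.2 CPM after CAP, 187 ± 7.54 CPM untreated), CXCL8 (184 ± 21.7 and 385 ± 30.1 CPM) and CXCL10 (10 ± 0.457 and 27.3 ± 0.405 CPM; SD, n = 3) fell.

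**Figure D5:**
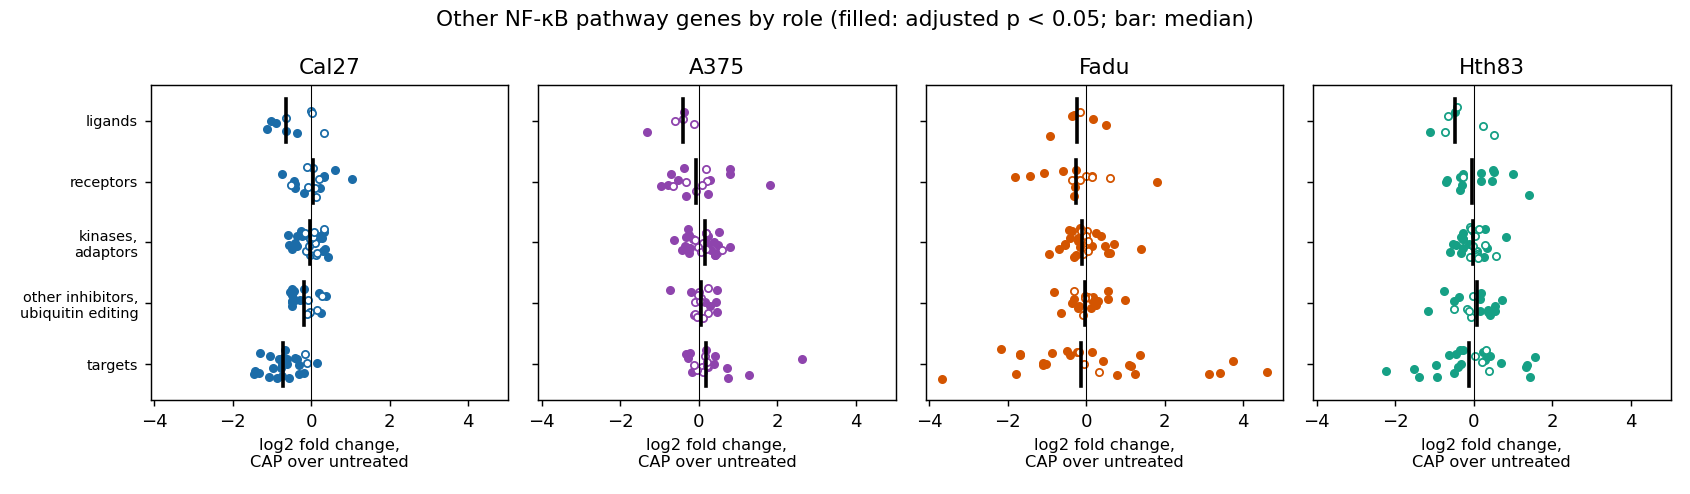
Log2 fold change, CAP over untreated, of the other pathway genes tested in each line, grouped by role; filled points passed an adjusted p of 0.05 and black bars are medians. The targets of Cal27 centre on -0.72, and those of Fadu spread on both sides of a median of -0.12.

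Over all 24 libraries, the genes whose log2 CPM followed each member most closely were listed by Pearson's r; lines form clusters, so r mostly reflects levels of the 4 lines. TNFAIP3 was most like CD274 (r = 0.99), RELA most like ARRDC1 (0.989), NFKB2 most like MED15 (0.988), BIRC3 most like CCNL1 (0.987), RELB most like AP5Z1 (0.984), NFKBIA most like ZC3H7B (0.983), NFKBIZ most like FBXO8 (0.982), NFKBIE most like OTUB1 (0.981), NFKB1 most like KRCC1 (0.964) and REL most like SHPRH (0.948). For NFKBIZ the next was TAB2 (0.977), an adaptor of the kinase complex upstream of NF-κB. TNFAIP3 and CD274 (which encodes PD-L1) had the closest match of any pair listed.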

How the data were processed

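Piezo-CAP-treated and untreated cells of 4 lines were sequenced, 3 libraries per group (HiSeq3000, SMARTER mRNA-Seq kit, Trizol RNA, per the labels' protocols). The submitters' processing notes name HISAT2 and the build GRCh38. Not given in the sources used here were the counting tool, annotation release, use of strand and treatment of intronic reads. The authors deposited raw counts per gene and TPM for each line, 61533 genes each. The deposited TPM divide by genomic span: the implied length was within 5% of the span for 92.8% of 13317 genes and of the GENCODE 29 exonic length for 3.47%. TPM were therefore recomputed over exonic length for levels between genes (58356 genes, at least 99.83% of counts); if intronic reads were counted, these levels are too high for genes with long introns. All 37 mitochondrial genes had 0 counts.

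Counts were tested in R 4.3.3 with edgeR 4.0.16 (TMM, filterByExpr with minimum count 10 and total 15, robust quasi-likelihood test, Benjamini-Hochberg over all genes tested, threshold 0.05), per line and, for line differences, over all 24 libraries. "Rose" and "fell" mean an adjusted p under 0.05. Biological coefficients of variation were 5.25%, 5.12%, 5.07% and 6.17% in Cal27, A375, Fadu and Hth83, and replicate pairs differed by more than counting error. Alternatives were RLE and library-size scaling, other filters (none, CPM of 1 in 3 libraries), no robust dispersion, DESeq2 1.42.0, limma 3.58.1 on log2(TPM + 1) and log2(TPM + 0.1), a replicate block, the joint fit and each library left out. Limma on exonic TPM was added after seeing the data. Fits without a library applied the low-count filter anew with a smaller smallest group, so the genes tested changed too. Fits on TPM changed the test and the filter as well as the scaling. The edgeR, DESeq2 and limma fits were tested on simulated data with few changed genes and a single spread. Such data cannot tell which scaling suits these libraries. The members and gene lists were chosen with earlier results of these data known. All members were named; other pathway genes were named from the 5 largest rises and 5 largest falls per line with at least 10 CPM and no overlap between groups, and not all of them are reported. Promoters came from RefSeq on GRCh38.p14.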

Additional observations from a re-analysis of the deposited data

Results flagged for a closer look

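The effect of CAP differed between the 4 lines for all 10 members, tested as an interaction of line and treatment with 3 degrees of freedom (edgeR's quasi-likelihood test, Benjamini-Hochberg over 23642 genes, of which 56.9% passed). The adjusted p was 2.28e-16 for REL, which rose in 1 line and fell in 1, 1.59e-09 for RELA, 4.56e-07 for RELB, 1.9e-11 for NFKB1 and 3.21e-16 for NFKB2. Among the inhibitors it was 4.27e-23 for NFKBIA, which rose in 2 lines and fell in 2 (in Cal27 it turned to 0.09 on the deposited TPM), 1.31e-06 for NFKBIE, 4.96e-11 for NFKBIZ, 8.05e-21 for TNFAIP3, which rose in 3 lines and fell in 1 (in Cal27, where the deposited TPM gave -0.02, limma adjusted p = 0.611), and 8.8e-08 for BIRC3. These 10 tests share libraries, and their passing is to be read against the share of all genes that passed.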

How the results depend on the processing

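Of the counts of calls, 4 moved by over 1.5 times: A375 had 6057 called genes with limma on log2(TPM + 1) without a filter, against 9900, and the members called in Cal27 numbered 5 with each of the 3 fits on the deposited TPM, against 8. Leaving out 1 library at a time gave 6956 to 7820 called genes in Cal27, 8739 to 9676 in A375, 9431 to 9737 in Fadu and 7792 to 8506 in Hth83. Members called were then 8 to 9 in Cal27, 6 to 7 in A375, 7 to 8 in Fadu, 6 to 7 in Hth83, and 10 for both F tests. For the interaction these fits gave 13075 to 13382 genes, and for its pairs 7721 to 8478 (Cal27 against A375), 8545 to 9178 (Cal27 against Fadu), 7802 to 8317 (Cal27 against Hth83), 7747 to 8589 (A375 against Fadu), 5877 to 6509 (A375 against Hth83) and 7918 to 8479 (Fadu against Hth83). For untreated levels they gave 22243 to 22719 genes, and for the pairs 17688 to 18586 (Cal27 against A375), 15933 to 16765 (Cal27 against Fadu), 15714 to 16520 (Cal27 against Hth83), 17380 to 18320 (A375 against Fadu), 16444 to 17349 (A375 against Hth83) and 15861 to 16713 (Fadu against Hth83). With all libraries the counts were 7832, 9900, 10200 and 8657 in Cal27, A375, Fadu and Hth83. They were 13457 for the interaction and 22028 for untreated levels. These main counts lie outside the ranges, and each fit without a library applied the low-count filter anew, so its genes tested differ. Directions that were called in either fit turned only on TPM or library-size scaling. In Cal27 NFKB1 was at 0.02 and NFKBIA at 0.09 in the 3 fits on the deposited TPM, and NFKBIA at 0.03 on the exonic TPM. The NFKB1 effect of Cal27 minus A375 was 0.07 to 0.08 on the deposited and 0.01 on the exonic TPM. Among untreated lines NFKB1 of A375 minus Hth83 was 0.22 to 0.23 on the deposited TPM and by library size and 0.24 on the exonic TPM, RELB of A375 minus Hth83 0.01 on the first 2 scales and 0.02 on the exonic TPM, and NFKBIZ of Cal27 minus Fadu -0.14 and -0.06 on the 2 TPM scales. The cause was not tested. Same-numbered libraries did not deviate together (correlations of -0.02 to 0.04). Such values cannot tell whether these libraries were handled together, so pairing by number is not known. A replicate block gave 7704, 9946, 10183 and 8652 called genes in Cal27, A375, Fadu and Hth83 and left the members called at 8, 6, 8 and 6. With 3 libraries per group and an SE of at least 0.10 (log2), REL of Cal27 and A375, BIRC3 of A375 and NFKBIE of A375, Fadu and Hth83 are the least precisely measured members.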
